A study of Bos taurus with 16 samples.

Results

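The proteasome genes described here are those whose name on the array begins with PSM followed by a letter from A to G and a number. The array design held 104 such probes among 43653, in 107 spots, and they named 47 genes of the 25427 names on the array. Of these 47 genes, 46 encode subunits, activators, inhibitors or assembly chaperones of the proteasome. The remaining name, PSMC3IP, belongs to a partner protein of PSMC3 that acts in meiotic recombination and is no proteasome subunit. The tissue was endometrium, the inner layer of the uterine wall, sampled with forceps from the uterine horns of 4 fertile cows. The nominal sampling days were 10, 30, 50 and 100 after parturition, with 1 one-colour array for each cow and day, which makes 16 arrays. The true days were 9 and 10, 29 and 30, 49 to 51, and 99 and 100. Day 10 falls into early involution, when the uterus shrinks and is cleared of debris and bacteria, and served as the baseline for the later times. No treatment or genotype separates the arrays, and the 4 cows are separate animals.

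The proteasome is the chamber in which ubiquitin-tagged proteins are cut into peptides. Its 20S core is built from rings of PSMA and PSMB proteins, and the proteases PSMB5, PSMB6 and PSMB7 sit inside it. The 19S cap, made of the PSMC ATPases and the PSMD subunits, recognises and unfolds tagged proteins. Under interferon gamma, and constantly in many immune cells, PSMB8, PSMB9 and PSMB10 are built in instead of PSMB5, PSMB6 and PSMB7, which gives the immunoproteasome. PSME1 and PSME2 form an interferon-induced activator that docks on the core. The immunoproteasome is known for producing peptides that MHC class I molecules present to CD8 T cells.

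A level in the text is the log2 of a probe's signal relative to the percentile 75 of its array, so that 1 unit is a doubling. Levels of different probes cannot be compared with each other, and only changes are. Where a gene had several probes, the one with the highest mean stands for the gene. All 47 of these probes were tested, and 46 were well above background on all 16 arrays. PSMB11, the catalytic subunit of the thymus, was well above background on 13 arrays. PSMA8 and PSME3 are not among the names matched here and were not analysed here.

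The sequences of 8 probes are shown because the results turn on these genes. They were designed as 60-base oligonucleotides and are given 5′ to 3′ as the array design lists them, with coordinates on bovine build HGSC Btau_3.1. The choice was restricted to probes with at least 1 reading frame without a stop codon, and positions relative to exons and UTRs were not analysed here. No part is in capitals because the whole oligonucleotide hybridises.
PSMB8, chr23:7379932-7380229: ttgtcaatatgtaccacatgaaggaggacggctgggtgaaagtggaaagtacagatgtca
PSMB9, chr23:7398455-7398514: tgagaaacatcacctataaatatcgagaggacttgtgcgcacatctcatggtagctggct
PSMB10, chr18:34441558-34441728: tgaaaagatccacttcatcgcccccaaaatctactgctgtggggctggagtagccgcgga
PSME1, chr10:21292296-21292518: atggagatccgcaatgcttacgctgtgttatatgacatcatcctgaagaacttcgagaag
PSME2, chr10:21287067-21287126: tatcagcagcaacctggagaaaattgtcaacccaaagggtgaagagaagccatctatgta
PSMB6, chr19:26938979-26939038: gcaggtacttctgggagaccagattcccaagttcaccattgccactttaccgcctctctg
PSMB7, chr11:98853337-98872266: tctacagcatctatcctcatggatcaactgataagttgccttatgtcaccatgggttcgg
PSMG1, chr1:141513621-141513680: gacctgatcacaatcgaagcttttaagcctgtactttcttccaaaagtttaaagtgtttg

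Over the 28 pairs of these sequences the longest run of bases shared by both was 7. The listed intervals of PSMB8, PSMB10, PSME1 and PSMB7 are longer than the 60 bases of their probes. The PSMB8, PSMB9, PSME1, PSME2, PSMB7 and PSMG1 sequences belong to a further probe of the gene, and those of PSMB10 and PSMB6 to the representative probe. In the RefSeq gene table of ARS-UCD2.0, TAP1 lies between PSMB8 and PSMB9 on chromosome 23, with TAP2 nearby, and EMC9 lies between PSME2 and PSME1 on chromosome 10, with IRF9 nearby.

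Levels of marker genes of cell types differed between the 16 arrays, and not all of these genes were well above background on every array. The median signal ran from 51.1 to 154 and the share of probes well above background from 61.1% to 76.9%. The lowest median signals were those of cows 3 and 2 at day 100, 51.1 and 54.8, and of cow 4 at day 30, 79.2. At day 10 the median signal ran from 104 to 154. The part of signal strength in the values of these arrays was not tested. Each cow had its own slide and scan, so cow and slide cannot be told apart. The position on the slide followed the time in every cow, so time and slide position cannot be told apart either. Correlations across probes between arrays of a day were lowest between the day 100 arrays of cows 1 and 2, at 0.83. On the day 100 array of cow 1 the epithelium list (11 genes tested) stood 2.95 above its mean over arrays and the smooth muscle list (9 genes tested) at -3.67, against -3.67 and 2.12 on the day 100 array of cow 2. MYH11, a smooth muscle myosin, stood at 0.83 on that array of cow 1 and at 6.16 on that of cow 2. EPCAM, an epithelial adhesion protein, stood at 6.14 on that array of cow 1 and at -3.21 on that of cow 2.

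The inducible catalytic subunits PSMB8, PSMB9 and PSMB10 had the widest ranges of the proteasome groups over the 16 arrays, from 2.83 to 3.90 log2 units, against 0.73 to 1.38 for the constitutive subunits. They were high at day 10 in cows 1 and 4 and low in cows 2 and 3. At day 30 they were lower than at day 10 in cows 1 and 4 and higher in cows 2 and 3, and at day 50 they were higher than at day 30 in all 4 cows. No difference between times passed the threshold for any of them.

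PSMB8, which replaces PSMB5, stood at 2.46, 0.54, 1.86 and 2.71 at days 10, 30, 50 and 100 in cow 1. In cow 2 it stood at 0.06, 0.82, 0.85 and 0.60. In cow 3 the values were 1.06, 1.85, 2.22 and 2.23, and in cow 4 they were 2.88, 0.28, 2.46 and 1.77. Cow 2 was lowest at days 10, 50 and 100, and the 4 days overlap. PSMB8 at day 30 differed from day 10 by -0.75 ± 0.51 (SE, n = 4 cows), with an adjusted p of 0.538 in limma, over differences of -1.93, 0.76, 0.79 and -2.61 in cows 1 to 4.

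PSMB9, which replaces PSMB6, stood at 4.17, 1.49, 3.32 and 4.17 in cow 1 over the same days. It stood at 0.64, 1.68, 1.97 and 1.30 in cow 2. Cow 3 had 1.87, 2.63, 3.79 and 4.55, and cow 4 had 4.10, 1.53, 3.37 and 2.86. The range over cows was 3.52 at day 10 and 1.14 at day 30, so the cows were closest to each other at day 30. The day 30 minus day 10 difference was -0.87 ± 0.64 (SE, n = 4 cows; limma, adjusted p = 0.565), and the day 50 minus day 30 difference was 1.28 ± 0.64 (limma, adjusted p = 0.561), higher in 4 of 4 cows.

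PSMB10, which replaces PSMB7, stood at 1.30, -1.44, 0.41 and 1.27 in cow 1. In cow 2 it stood at -2.14, -1.04, -0.94 and -1.19. In cow 3 the values were -1.07, -0.54, 1.19 and 0.68, and in cow 4 they were 1.43, -1.78, 0.69 and -0.04. The day 30 minus day 10 difference was -2.74 and -3.21 in cows 1 and 4, and 1.10 and 0.53 in cows 2 and 3. PSMB10 had the largest F over times of the inducible catalytic genes (2.27, adjusted p = 0.381) and PSMB8 the smallest (1.59, adjusted p = 0.486). Its day 50 minus day 30 difference of 1.53 ± 0.65 (SE, n = 4 cows; limma, adjusted p = 0.523) had an interval from 0.11 to 2.96.

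Further probes of PSMB8 and PSMB9 were compared with the representative ones. The 2 further PSMB8 probes well above background on 16 arrays correlated with the representative one at 0.94 and 0.97 over the 16 arrays, which are 4 from each cow and no independent points. Between day 100 and day 10 they differed by -0.15 and 0.24, against 0.21 for the representative PSMB8 probe. The printed PSMB9 probe and another further probe had correlations of 0.98 and 1.00. Another PSMB9 probe, well above background on 4 arrays, had a correlation of 0.70, with differences from day 10 of -0.07 at day 30 and 1.58 at day 100, against -0.87 and 0.53 for the representative probe. On the printed PSMB9 probe cow 2 stood at -3.53, -2.49, -2.32 and -3.34 over days 10 to 100, while cow 4 stood at 0.44, -2.61, -0.33 and -1.15.

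For the activator subunits PSME1 and PSME2 the signs by cow between day 10 and day 30 were those of the catalytic genes. PSME1 stood at 4.81, 3.96, 4.30 and 4.70 in cow 1, 3.39, 4.49, 3.98 and 4.31 in cow 2, 3.64, 4.27, 4.71 and 5.17 in cow 3, and 4.63, 3.79, 4.56 and 4.29 in cow 4. It was lower at day 30 than at day 10 by 0.85 and 0.84 in cows 1 and 4, and higher by 1.11 and 0.63 in cows 2 and 3. PSME2 stood at 3.98, 3.45, 3.65 and 3.62 in cow 1, 3.22, 3.74, 3.18 and 3.63 in cow 2, 3.13, 3.32, 3.36 and 3.91 in cow 3, and 3.97, 3.37, 3.26 and 3.54 in cow 4. Its range over the 16 arrays was 0.85, against 1.78 for PSME1. Neither gene passed over times, with an F of 0.97 for PSME1 and 0.65 for PSME2 (adjusted p = 0.625 and 0.729).

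**Figure D1:**
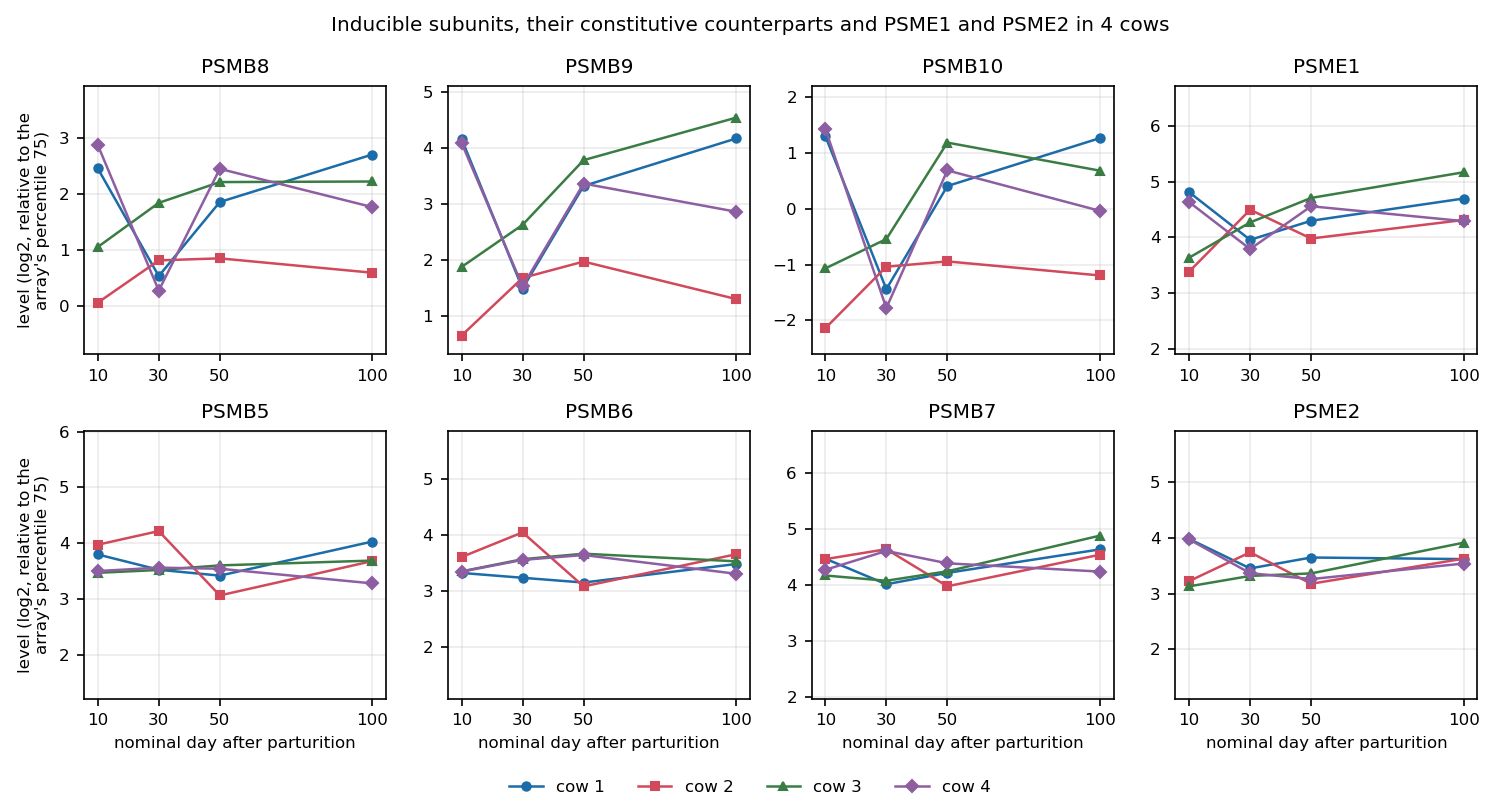
Level (log2, relative to the array's percentile 75; every panel spans the same height) of PSMB8, PSMB9, PSMB10, PSME1, their constitutive counterparts PSMB5, PSMB6 and PSMB7, and PSME2 against nominal day, 1 line per cow. PSMB9 runs between 0.64 and 4.55 while PSMB6 stays between 3.08 and 4.05, and cows 1 and 4 lie lower at day 30 than at day 10 in the panels of PSMB8, PSMB9 and PSMB10.

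The constitutive counterparts had narrow ranges on the same arrays. PSMB5, which cuts after hydrophobic residues, stood at 3.80, 3.52, 3.42 and 4.03 in cow 1, 3.97, 4.22, 3.06 and 3.68 in cow 2, 3.47, 3.52, 3.60 and 3.69 in cow 3, and 3.50, 3.56, 3.54 and 3.28 in cow 4. PSMB6, which cuts after acidic residues, ran from 3.08 to 4.05 over the 16 arrays. PSMB7, which cuts after basic residues, ran from 3.98 to 4.89. Their day 30 minus day 10 differences were 0.02 ± 0.24, 0.20 ± 0.21 and -0.01 ± 0.23 (SE, n = 4 cows; limma, adjusted p = 0.978, 0.699 and 0.991). In cow 2 the day 50 minus day 30 differences of PSMB5, PSMB6 and PSMB7 were -1.15, -0.97 and -0.66, the largest between neighbouring days for these genes in any cow.

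A difference between genes on the same array does not depend on the constant subtracted from that array. The mean of the 5 inducible genes minus the mean of the 14 constitutive 20S subunits differed between day 30 and day 10 by -1.48, 0.63, 0.60 and -2.05 in cows 1 to 4. Between day 50 and day 30 it differed by 1.11, 0.56, 0.61 and 1.50, with a mean of 0.95 ± 0.45 (SD, n = 4 cows), and it was higher at day 50 in 4 of 4 cows. The inducible mean alone was higher in 3 of 4 cows. In cow 2 it differed by -0.13, and the constitutive mean by -0.70. PSMB8 minus PSMB5 differed between these days by 1.43, 1.19, 0.29 and 2.20, PSMB9 minus PSMB6 by 1.92, 1.26, 1.06 and 1.75, and PSMB10 minus PSMB7 by 1.64, 0.76, 1.56 and 2.69. All 12 of these values are above 0, but they come from the same 4 cows and are no independent points. In cow 2 the mean of PSMB8, PSMB9 and PSMB10 differed by 0.14, while PSMB5, PSMB6 and PSMB7 each fell. With 4 cows an exact sign-flip test cannot go below a two-sided p of 0.125, and no test was made on these means. Between day 100 and day 50 the difference of the groups' means differed by 0.19, -0.49, -0.06 and -0.11, with a mean of -0.12 ± 0.28 (SD, n = 4 cows).

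The spread left after the terms for time and cow set PSMB8, PSMB9 and PSMB10 apart from the constitutive subunits. It was 0.78, 0.99 and 1.00 for PSMB8, PSMB9 and PSMB10 (residual SD, log2), against a median of 0.53 over all tested probes. These values lie at the percentiles 72, 83 and 83.5 of all tested probes. PSME1 had 0.49 and PSME2 0.30, the latter within the range of the constitutive subunits. All 31 constitutive subunits of the core and cap had a residual SD between 0.12 and 0.38, under the median of all probes. The lowest was that of PSMD13, a cap subunit, and the highest that of PSMA3, a subunit of the alpha ring. These values are those of each gene's probe with the highest mean, while the median of all tested probes includes dim and further probes. On the further PSMD13 probes the SE of a difference between days was 0.37 and 0.39, against 0.16 on the representative probe. The median SE over all tested probes was 0.36. The part of the choice of probe was not tested.

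**Figure D2:**
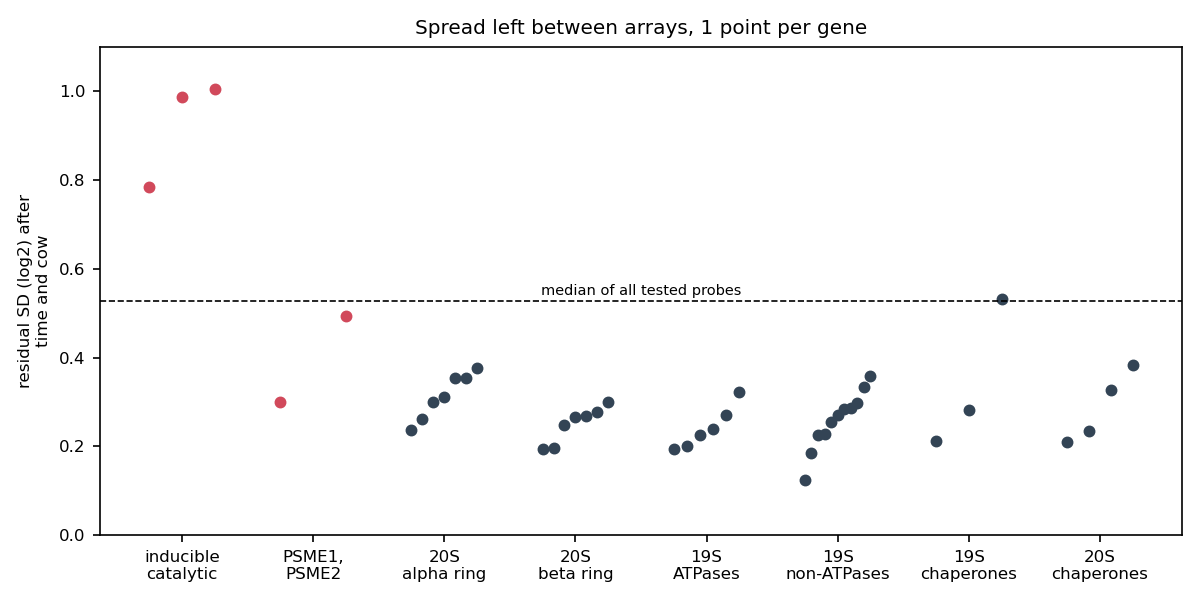
Residual SD (log2) after the terms for time and cow, 1 point per gene, by role. PSMB8, PSMB9 and PSMB10 lie between 0.78 and 1.00, above the dashed median of all tested probes at 0.53, and the constitutive subunits lie between 0.12 and 0.38.

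The levels of tissue marker lists differed between the same arrays, and are given beside the inducible genes for that reason. A list's level is the mean deviation of its genes from their means over the 16 arrays. PSMB8, PSMB9 and PSMB10 together stood at 1.29, -1.16, 0.51 and 1.37 in cow 1 over days 10, 30, 50 and 100, and at -1.83, -0.87, -0.72 and -1.12 in cow 2. They stood at -0.73, -0.04, 1.05 and 1.14 in cow 3 and at 1.45, -1.34, 0.82 and 0.18 in cow 4. The smooth muscle list stood at -1.68, 1.90, 0.04 and -3.67 in cow 1 and at 1.73, 1.76, 1.59 and 2.12 in cow 2. It stood at 1.41, -0.22, -1.62 and -1.94 in cow 3 and at -1.80, 1.10, -1.03 and 0.30 in cow 4. High smooth muscle signal and low inducible signal coincided on the 4 arrays of cow 2, on the day 30 arrays of cows 1 and 4 and on the day 10 array of cow 3.

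The epithelium list stood at 0.77, -0.51, 0.84 and 2.95 in cow 1, -2.85, -0.25, 0.79 and -3.67 in cow 2, -0.81, 0.38, 1.37 and 0.70 in cow 3, and 0.84, -2.30, 1.14 and 0.61 in cow 4. Of its 11 tested genes 8 were well above background on all arrays and each of the others on at least 12. All 9 smooth muscle genes were well above background on all 16 arrays. The T and NK cell list (12 genes tested) ran from -0.87 to 1.16 at day 10, from -0.50 to 0.29 at day 30, from -0.49 to 0.82 at day 50 and from -1.12 to 0.49 at day 100. Its highest value was that of cow 4 at day 10, and cow 2 was lowest on each of the 4 days. The macrophage list (12 genes tested) ran from 0.77 to 2.63 at day 10, from -1.26 to 0.34 at day 30, from -1.58 to 1.00 at day 50 and from -1.37 to -0.14 at day 100. The neutrophil list (6 genes tested, 4 of them well above background on all arrays) stood at 4.44, 0.49, -0.02 and 3.72 at day 10 in cows 1 to 4, and between -1.79 and 0.15 at day 30. The dendritic cell and class II list (6 genes tested) stood at 1.56, -0.24, 0.33 and 1.90 at day 10, and between -1.06 and 0.19 at day 30. Both were thus higher at day 10 in cows 1 and 4 than in cows 2 and 3, as were the inducible genes. The same held at day 10 for the epithelium, T and NK cell, macrophage, B and plasma cell and stromal fibroblast lists. It did not hold for the endothelial list, and the smooth muscle list was lower in cows 1 and 4. Between day 30 and day 10 the epithelium, T and NK cell and B and plasma cell lists had the signs by cow of the inducible genes. The macrophage, neutrophil and dendritic cell and class II lists were lower in 4 of 4 cows. The smooth muscle, endothelial and stromal fibroblast lists had other signs. Only the smooth muscle list was fitted as a further term, as given below. The part of the other cell types in the inducible genes' values was not tested. In a bulk biopsy fewer cells of a type and less RNA per cell cannot be told apart.

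With the smooth muscle level as a further term, chosen after seeing the data, the residual SD was 0.47 for PSMB8, 0.55 for PSMB9 and 0.59 for PSMB10. For PSMB6 it was 0.22 with the term and 0.25 without it, and for the median of all tested probes 0.48 and 0.53. The fitted slope was -0.42, -0.54 and -0.54 log2 units per log2 unit of the list for PSMB8, PSMB9 and PSMB10, -0.23 for PSME1, -0.09 for PSME2 and -0.08 for PSMB6. With this term the difference of the inducible minus the constitutive mean was -0.25 between day 30 and day 10 and 0.57 between day 50 and day 30.

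**Figure D3:**
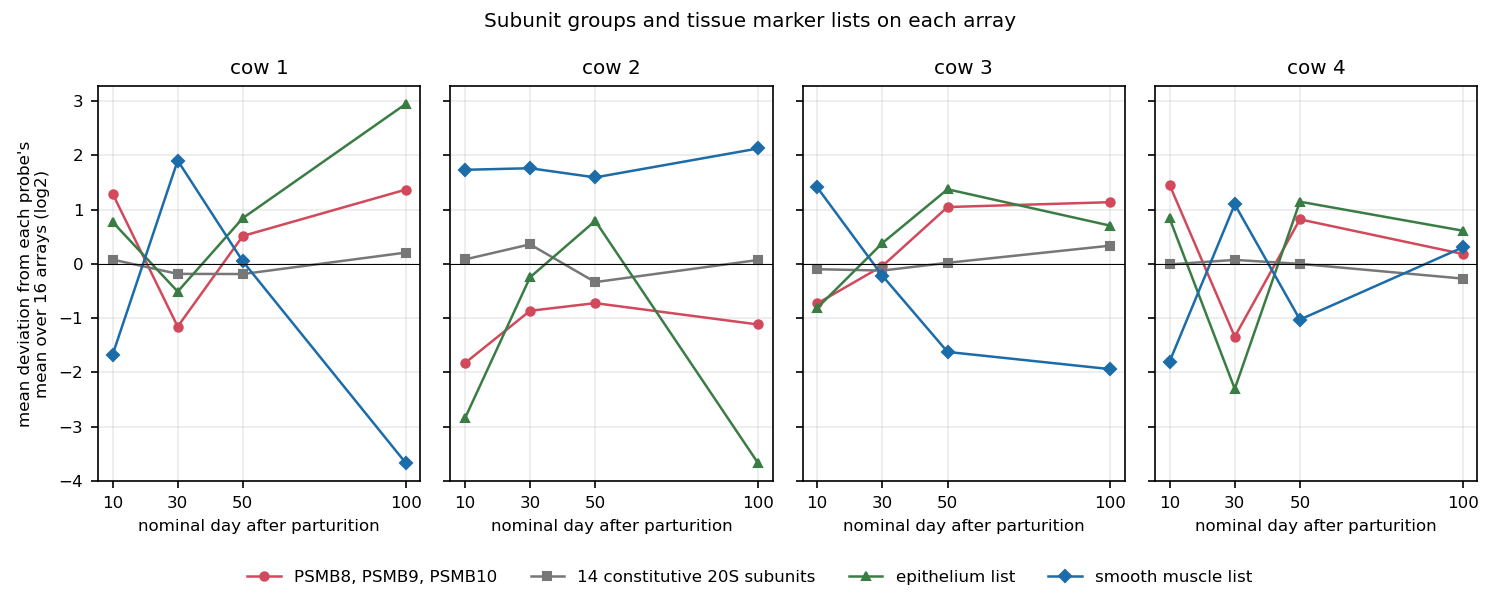
Mean deviation (log2) of PSMB8, PSMB9 and PSMB10, of the 14 constitutive 20S subunits, of the epithelium list and of the smooth muscle list from each probe's mean over 16 arrays, against nominal day, 1 panel per cow. The inducible and smooth muscle lines lie on opposite sides of 0 on many arrays, as at day 30 in cow 1 (-1.16 and 1.90), and on the same side at day 30 in cow 3, at day 50 in cow 1 and at day 100 in cow 4, while the constitutive line stays between -0.34 and 0.36.

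Over all 47 genes, 1 call was made. At an adjusted p of 0.05 in limma, 0 of 47 genes were called between day 30 and day 10, where 0.419% of all tested probes were, and 0 between day 50 and day 10, where 1.65% were. Between day 100 and day 10 the call was PSMG1, which rose, and 4.6% of all tested probes were called, 1.45% as higher. None of the 47 genes was called in the 3 differences among days 30, 50 and 100, where no probe was called, or in the F test over times, where 1.03% were. At an unadjusted p under 0.05 in limma, 2, 2 and 4 genes passed for days 30, 50 and 100 against day 10, which is 4.26%, 4.26% and 8.51% of the 47 genes. Over all tested probes the shares were 14%, 18.6% and 25.7%. Between day 50 and day 30, 4 genes passed unadjusted, PSMB10 among them, and the share of all probes was 9.33%. For day 100 against day 30 it was 2 genes and 12.8% of probes, for day 100 against day 50 it was 0 genes and 3.14%, and for the F test 4 genes and 18.9%.

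Groups that did not overlap were also few. All 4 cows lay outside the range of day 10 for 2 of 47 genes at day 30, against 8.51% of all tested probes. The same held for 6 genes at day 50, against 16.9%, although PSMB11 was compared there without cow 2, whose spot was nonuniform. At day 100 it held for 2 genes, against 11.1%. Between day 50 and day 30 it held for PSMD2 alone, against 7.65% of all tested probes. It held for no gene between day 100 and day 30 (3.02% of probes) or day 50 (2.1%). PSMG1 and PSMG4 were higher at day 30 than at day 10, PSMG1 and PSMB11 higher at day 50, and PSMG1 higher at day 100. The ranges over cows lay below those of day 10 for PSMB1, PSMB2, PSMD1 and PSMD2 at day 50, and for PSMD8 at day 100.

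PSMG1 pairs with PSMG2 in a chaperone that helps the alpha ring to assemble. It stood at 3.36, 3.73, 4.17 and 4.89 at days 10, 30, 50 and 100 in cow 1, at 3.45, 4.35, 4.11 and 4.07 in cow 2, at 3.46, 3.66, 4.40 and 4.99 in cow 3, and at 3.18, 3.93, 3.80 and 4.06 in cow 4. Every value after day 10 was above every value at day 10. It rose by 1.14 ± 0.25 between day 100 and day 10 (SE, n = 4 cows; limma, adjusted p = 0.031), a 2.21-fold difference with differences of 1.53, 0.63, 1.54 and 0.88 in cows 1 to 4. The differences at day 30 and day 50 were 0.56 ± 0.25 and 0.76 ± 0.25 (limma, adjusted p = 0.35 and 0.141). The call was lost without cow 1, cow 3 or cow 4, at adjusted p of 0.14, 0.177 and 0.108, with differences from 1.01 to 1.32 over the 4 fits that leave a cow out.

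The second PSMG1 probe, whose sequence is given above, correlated with the first at 0.97 over the arrays and differed by 1.07 between day 100 and day 10 (limma, adjusted p = 0.062). It stood at 2.36, 2.54, 2.23 and 2.03 at day 10 and at 3.73, 2.88, 3.91 and 2.90 at day 100 in cows 1 to 4. PSMG2, its partner, differed by -0.26 at day 100 (limma, adjusted p = 0.585) and ran from 1.30 to 2.60 over the arrays. PSMG4, which pairs with PSMG3 in a second assembly chaperone, was 0.62 ± 0.21 higher at day 30 than at day 10 in 4 of 4 cows (SE; limma, adjusted p = 0.214), and 0.55 ± 0.21 lower at day 50 than at day 30 in 4 of 4 cows (limma, adjusted p = 0.501). It stood at 4.96, 5.30, 4.86 and 5.55 at day 30, against 4.47, 4.81, 4.57 and 4.35 at day 10, in cows 1 to 4. A further PSMG4 probe, well above background on 16 arrays, differed by 0.31 between these days (limma, adjusted p = 0.56). On that probe the values of the days overlap. PSMG3 had the smallest F of the 4 core chaperones, 0.63.

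**Figure D4:**
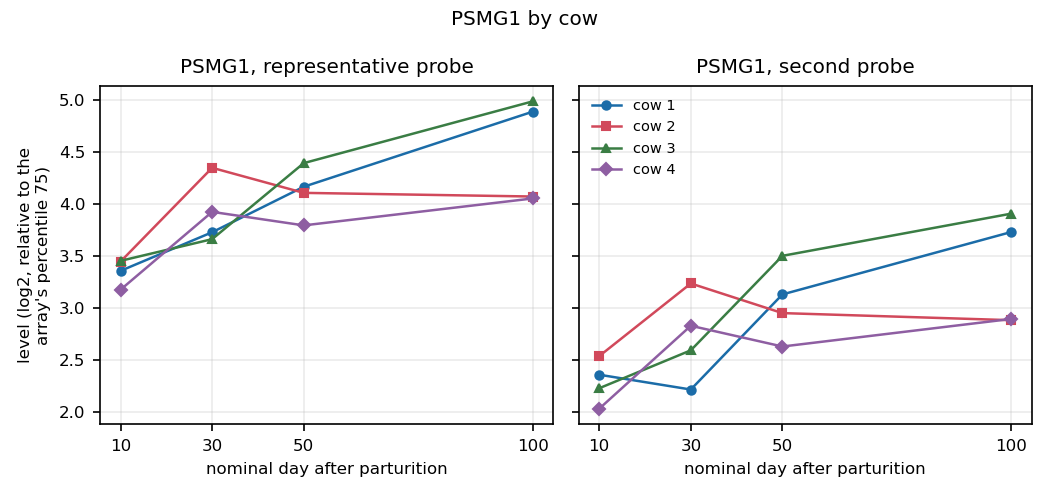
Level (log2, relative to the array's percentile 75) of the 2 PSMG1 probes against nominal day, 1 line per cow. On the representative probe all 12 values after day 10 lie above the day 10 values, which end at 3.46, while the second probe has its lowest value after day 10, 2.22 in cow 1 at day 30, within its day 10 range.

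No subunit of the core rings passed in any difference. The 7 PSMA subunits, which form the outer rings and the gate, had day 30 minus day 10 differences between -0.10 and 0.18, day 50 minus day 10 differences between -0.15 and 0.03 and day 100 minus day 10 differences between -0.02 and 0.38. PSMA2 had the largest F (1.03, adjusted p = 0.608) and PSMA7 the smallest (0.13, adjusted p = 0.958). The highest PSMA2 value, 3.76, was that of cow 3 at day 100, and the other 15 arrays lay between 2.38 and 3.27. Among the 7 constitutive PSMB subunits PSMB1 had the largest F (1.12, adjusted p = 0.586) and PSMB6 the smallest (0.44, adjusted p = 0.814). PSMB1, a non-catalytic ring subunit, stood at 4.66, 4.58, 4.79 and 4.75 at day 50, against 5.07, 5.02, 4.88 and 4.89 at day 10, in cows 1 to 4. The groups do not overlap, and the difference was -0.27 ± 0.19 (SE, n = 4 cows; limma, adjusted p = 0.483).

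Among the 6 ATPases of the cap, PSMC1 had the largest F (2.73, adjusted p = 0.332) and PSMC6 the smallest (0.42, adjusted p = 0.821). PSMC1 stood at 1.34, 1.24, 0.92 and 0.48 at day 100, against 1.61, 1.84, 1.55 and 1.15 at day 10. It was lower in 4 of 4 cows although the 2 days overlap, and the difference was -0.54 ± 0.20 (SE; limma, adjusted p = 0.125). The PSMC6 spot was nonuniform on the day 30 array of cow 1 and was left out there. PSMC3IP, the name that is no subunit, was 1.01 ± 0.30 lower at day 100 than at day 30 in 4 of 4 cows (SE; limma, adjusted p = 0.277).

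Among the 11 non-ATPase subunits of the cap the largest F was that of PSMD2 (4.26, adjusted p = 0.221), a scaffold of the cap base. It stood at 3.85, 3.94, 4.02 and 3.99 at day 50, against 4.70, 4.93, 4.58 and 4.13 at day 10, in cows 1 to 4. The 2 days do not overlap, and the difference was -0.63 ± 0.18 (SE, n = 4 cows; limma, adjusted p = 0.102). PSMD2 was also lower at day 100, by 0.47 ± 0.18 in 4 of 4 cows (limma, adjusted p = 0.142). PSMD3 had the smallest F of these subunits (0.17, adjusted p = 0.94). Of the 31 constitutive subunits, 28 had an estimate below 0 for day 50 minus day 10, 28 for day 50 minus day 30, and 29 an estimate above 0 for day 100 minus day 50. Their medians were -0.15, -0.16 and 0.20, against -0.03, 0.00 and -0.05 over all tested probes. These subunits shared their arrays. The mean of the 14 core subunits for day 50 minus day 30 was -0.16, and 0.022 without cow 2. With quantile normalization the core mean was -0.0037 for day 50 minus day 10, against -0.14, and 0.006 for day 100 minus day 50, against 0.21. In cow 2 the mean deviation of the 14 core subunits was 0.36 at day 30 and -0.34 at day 50.

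**Figure D5:**
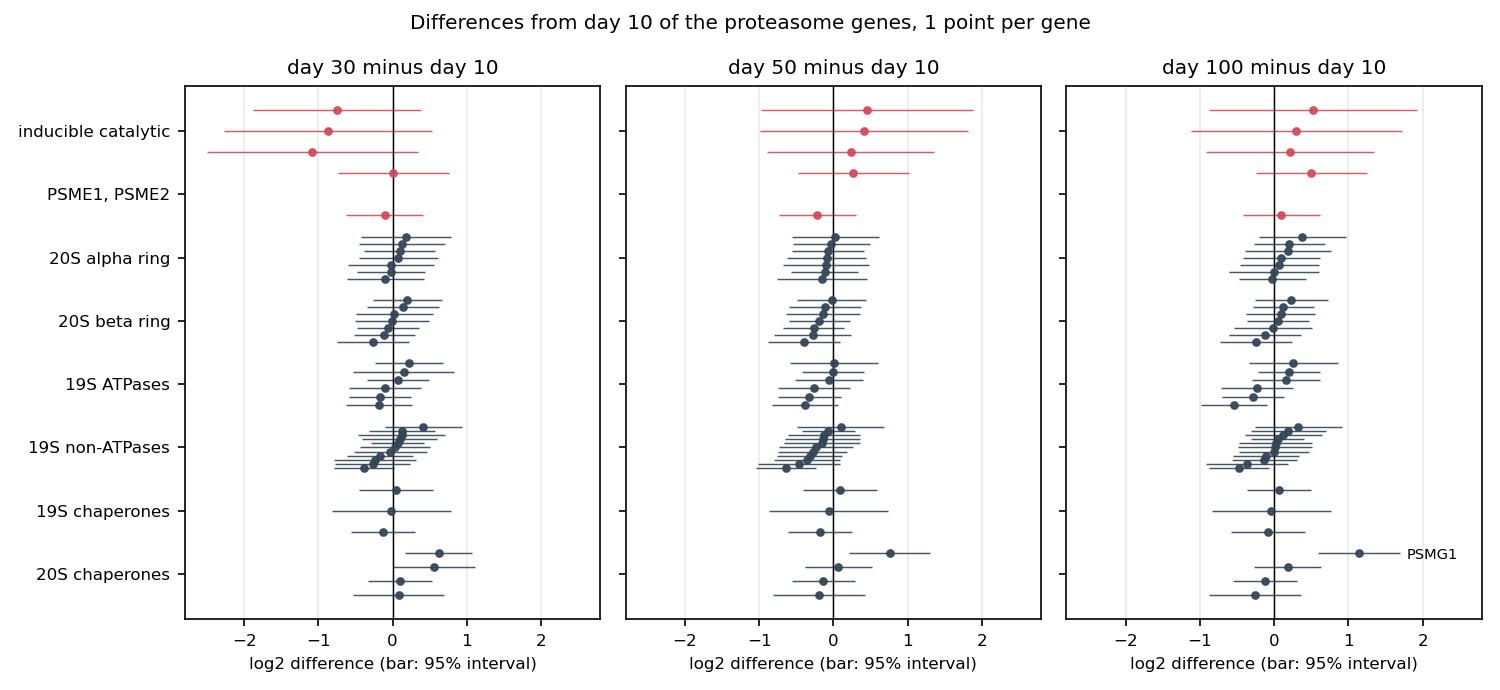
Log2 difference from day 10 at days 30, 50 and 100, 1 point per gene with its 95% interval, by role. The inducible catalytic genes have the widest intervals, as from -2.50 to 0.34 for PSMB10 at day 30, the constitutive subunits lie between -0.63 and 0.41, and PSMG1 at day 100 is the gene that passed the threshold.

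Of the remaining names, the chaperones of the cap gave the smallest F of all, 0.01 for PSMD10 (adjusted p = 0.999), and 0.64 for PSMD9 (adjusted p = 0.731). PSME4, a nuclear activator, and PSMF1, an inhibitor of the core, had F values of 0.47 and 0.89 (adjusted p = 0.798 and 0.649). PSMF1 stood at 0.29, 0.24, 0.02 and 0.56 in cow 1, against -0.09, -0.61, -0.33 and -0.63 in cow 3. An F test over cows, each on its own slide, was added after seeing the data. It gave an unadjusted p of 0.027 for PSMF1 and 0.04 for PSMB9 (adjusted p = 0.34 and 0.379). It called 0 of 47 genes, while 0.805% of all tested probes were called, and 2 genes passed unadjusted, against 12.5% of probes. PSMB11 stood at -4.07 in cow 1 at day 100, against -6.85 in cow 1 at day 10, and its other values lay between -6.45 and -5.20. Its difference between day 100 and day 10 was 1.03 ± 0.39 (SE; limma, adjusted p = 0.136), near the limit of detection, and its spot of cow 2 at day 50 was nonuniform.

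Probes of 1 gene did not always agree. Of 44 further probes that were well above background on all 16 arrays, 21 correlated with the representative probe at over 0.8 and 5 at under 0.5, namely those of PSMB4, PSMC3, PSMD1 and, in 2 cases, PSMD13. The further PSMD13 probes differed by -0.95 and -0.80 between day 100 and day 10 (limma, adjusted p = 0.138 and 0.216), against 0.05 for the representative probe. On both, cow 3 was lowest at day 100, at -1.60 and -0.64, and cow 4 was lowest at day 30, at -1.37 and -0.38. The median signals of these arrays were low, at 51.1 and 79.2. A further PSMG2 probe stood at -2.66 in cow 4 at day 100, against 1.07 in cow 4 at day 10, while the representative probe stood at 1.46 and 2.14.

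The genes that work beside the proteasome were counted from lists that hold none of the 47 genes. Over all tested probes 0.419%, 1.65% and 4.6% were called at days 30, 50 and 100 against day 10. Of 11 tested proteasome partners, such as the assembly factor POMP and the ubiquitin receptor ADRM1, 0 passed in any difference from day 10, and the largest F values were those of AKIRIN2 (6.04), ADRM1 (2.25) and UBE3C (1.99). Of 8 regulators of proteasome genes 0 passed, with the largest F for MAFF (5.35), NFE2L1 (3.77), the factor that drives new proteasome synthesis, and MAFG (2.26). Of 15 tested ubiquitin and shuttle genes 0 passed, with the largest F for RAD23B (3.64), UBQLN4 (2.41) and UBA6 (1.76). The medians of these lists at day 100 minus day 10 were 0.11, -0.07 and 0.02, against -0.07 over all tested probes.

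Of 19 genes of class I antigen processing, TPP2, a peptidase that trims proteasome products, was the 1 that passed. The share of all tested probes called was 1.65% at day 50 and 4.6% at day 100 against day 10. It fell by 1.09 at day 50 and by 1.07 at day 100 against day 10 (limma, adjusted p = 0.0204 and 0.0125). TPP2 stood at -1.96, -1.87, -2.05 and -1.72 at day 50, against -0.75, -0.85, -0.83 and -0.83 at day 10, in cows 1 to 4. The largest F values after it were those of THOP1 (3.14) and TAP2 (2.45). The list's median at day 30 minus day 10 was -0.49, against -0.01 over all tested probes. TAP1, the transporter gene between PSMB8 and PSMB9, stood at -1.55, -3.85, -2.10 and -0.60 in cow 1, -4.68, -3.80, -3.32 and -4.58 in cow 2, -3.09, -2.93, -2.50 and -3.40 in cow 3, and -1.54, -5.22, -2.24 and -3.06 in cow 4. It was low on the day 30 arrays of cows 1 and 4 and throughout cow 2. In cow 3 at day 100 it stood at -3.40, below the -3.32 of cow 2 at day 50, while PSMB9 had its highest value there, 4.55. TAP1 did not pass (limma, adjusted p = 0.438 for day 30 minus day 10).

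Of 18 tested interferon gamma genes, IRF8, a transcription factor of myeloid cells, fell by 1.66 at day 50 and by 2.26 at day 100 against day 10 (limma, adjusted p = 0.0485 and 0.0112). CXCL9, a T cell chemokine, fell by 3.89 at day 100 (limma, adjusted p = 0.024). GBP4, an interferon-induced GTPase, had the next largest F, 8.35, without passing. IRF1, which activates PSMB8, PSMB9 and TAP1 in humans and mice, stood at 3.22, -0.46, 0.57 and 3.31 at day 10 in cows 1 to 4, at -0.08, -0.73, 0.44 and -0.18 at day 30, at 1.31, 0.14, 1.62 and 1.22 at day 50 and at 1.56, -0.07, 1.58 and 0.75 at day 100. Cows 1 and 4 were high at day 10 for IRF1 as for the inducible subunits. From day 10 to day 30, however, IRF1 was lower in every cow, while PSMB8, PSMB9 and PSMB10 were higher in cows 2 and 3. The level of the interferon gamma list differed between these days by -2.13, -0.09, -0.15 and -2.10 in cows 1 to 4. The macrophage markers fell over the same days: 5, 6 and 12 of 12 tested genes passed at days 30, 50 and 100 against day 10. Of the 18 interferon gamma genes 0, 1 and 2 passed, and of all tested probes 0.419%, 1.65% and 4.6%. The calls of these lists were not recomputed with a cow left out. The part of the macrophage markers in the falls of IRF8 and CXCL9 was not tested.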

How the data were processed

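Each array was hybridised with Cy3-labelled RNA of 1 biopsy. The scanner files deposited by the authors give each spot's processed signal, mean signal and local background as linear intensity and flags coded as 0 and 1. Per the file headers, Agilent Feature Extraction 11.5.1.1 made them on build HGSC Btau_3.1, while the submitters' processing notes name version 10.5.1.1. A log2 value table deposited by the authors served as an alternative and correlated with the scanner values at 0.9998 to 1 over 43653 probes. Its column medians ran from -0.155 to 0.217.

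The percentile 75 of each array was subtracted from its log2 processed signals. Nonuniform spots, 4 to 125 per array, were left out, spots of a probe were averaged, and no spot was saturated. A model with time and cow terms (limma 3.58.1, R 4.3.3) was run on 33182 probes, those well above background on 4 or more of the 16 arrays. It gave 6 two-sided differences and an F over times, with Benjamini-Hochberg adjustment over all tested probes and a threshold of 0.05. Standard errors are those of limma, and intervals cover 95%. The fit was checked on simulated data. The number of arrays limits the precision. The labels name the cow, so the pairing is by animal, and deviations from the time means correlated with a median of 0.125 within a cow and -0.039 between cows.

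Named genes were the inducible genes and their counterparts, each gene that passed, and the genes with the largest and smallest F of each role. From lists without members, the genes that passed and those with the largest F were named. Others, such as PSMG4, PSMD1, PSMD8, TAP1 and IRF1, were named after their values were seen. The members and lists were chosen with earlier results of these data known.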

Additional observations from a re-analysis of the deposited data

Results flagged for a closer look

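In 102 groups of 4 arrays of 1 day, over 23 named genes and 3 group means, 8 had an array far from the others, by the ratio of its gap to the group's range. Chance flags about 1 in 20 such groups. PSMB9 at day 30 stood at 2.63 in cow 3, with the next value at 1.68. PSMB5 at day 30 stood at 4.22 in cow 2, with the next at 3.56. PSMB6 at day 10 stood at 3.61 in cow 2, with the next at 3.35. PSMA2 at day 50 stood at 2.38 in cow 2, with the next at 2.82. PSMB11 at day 30 stood at -6.42 in cow 2, with the next at -5.81. PSMA7 at day 100 stood at 3.88 in cow 4, with the next at 4.32. PSMD3 at day 50 stood at 3.42 in cow 4, with the next at 3.77. PSMD9 at day 30 stood at 1.49 in cow 1, with the next at 1.74. Cow 2 was the array apart in 4 of the 8 groups.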

How the results depend on the processing

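The counts of calls, 3 group means or differences of means, and the differences of 12 genes were recomputed under 13 planned and 4 added alternatives, the added ones chosen after seeing the data. Other printed values were not recomputed. PSMG1 kept its call between day 100 and day 10 without the replicate block (adjusted p = 0.0262), so dropping the block changed no call among the proteasome genes. It also kept it with quantile normalization, the array median, normexp, the deposited table, no filter on dim probes, the stricter filter, the mean over probes, array weights and the smooth muscle term, with differences from 1.01 to 1.39. Leaving out a cow gave 0 or 1 calls at day 100, and differences of PSMG1 from 1.01 to 1.32. The call was also lost without the day 100 array of cow 1 (1.00, adjusted p = 0.0578) or the day 10 array of cow 1 (1.12, adjusted p = 0.0925), with 0 calls each. Array weights gave 2 calls at day 50, PSMG1 (0.79) and PSMD2 (-0.63), and 1 in the F test, while calls over all probes reached 5229 at day 50, against 547 without weights, and the weights had not converged. Called probes at day 100 numbered 75 to 1588 when a cow was left out 3104 without the day 100 array of cow 2, 266 without the day 10 array of cow 1, 2482 with the smooth muscle term, 2755 with array weights and 1005 with the mean over probes, against 1527. At day 30 they numbered 57 without the block, 66 to 85 with normexp, the median or the smooth muscle term, 23 and 220 without the day 10 or day 100 array of cow 1, 514 with array weights and 14 to 46 without a cow, against 139. At day 50 they numbered 1197 with the smooth muscle term, 937 and 970 without a day 100 array, 59 without the day 10 array of cow 1, and 21 to 149 without a cow. The share of higher calls at day 100 was 482 of 1527, against 791 of 1484 with the median, 1423 of 1976 with normexp and 643 of 1469 with quantile normalization. The median and normexp moved the median of all probes at day 100 to 0.17 and 0.25, against -0.07.

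In 10 of 1224 single-gene values, none of them called, the sign turned and the value moved by more than its standard error: with quantile normalization PSMG4 (-0.17) and PSMD2 (-0.059) at day 100 minus day 50, with the median PSMB5 (0.23) at day 100 minus day 10 and PSMC1 (0.083) at day 100 minus day 50, with normexp PSMB7 (-0.027) at day 100 minus day 10, and with the mean over probes PSMB6 (0.12) at day 100 minus day 30. When each cow was left out in turn, PSME1 at day 30 minus day 10 ran from -0.35 (without cow 2) to 0.30, PSMB6 at day 50 minus day 30 from -0.32 to 0.034 (without cow 2), PSMB9 at day 100 minus day 10 from -0.19 (without cow 3) to 1.11, and PSMC1 at day 100 minus day 50 from -0.32 to 0.053 (without cow 4). A further 72 sign changes were smaller than the standard error. The causes were not tested. The inducible minus constitutive mean stayed below 0 at day 30 minus day 10 (-0.98 to -0.09 without a cow) and above 0 at day 50 minus day 30 (0.76 to 1.07). With quantile normalization AKIRIN2 also passed at day 100 (-1.09, adjusted p = 0.0469).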
